A study of Arabidopsis thaliana with 18 samples.

Results

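GH3.3 (AT2G23170) and RR16 (AT2G40670) are 2 of the 13356 genes that a probe set with a single gene stands for on these arrays. They were chosen by the difference between the bru1 mutant and the Col wild type in the response 4 h after heat, which ran in opposite directions for the 2 genes. That choice used the log2 expression values of the untreated and 4 h seedlings. Each gene had 1 probe set. Every comparison that uses those arrays is given for both genes as a description, with no test. Only the difference of bru1 from Col at 52 h uses no array of the contrast behind the choice, and only it is tested for them. The genes were chosen with earlier results of these data known, so this test may not be wholly apart from the choice. The standard error and p of the 52 h difference still take the spread between replicates from all 18 arrays. The fit of the 6 arrays of 52 h alone is therefore given beside it.

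GH3.3 encodes an enzyme that joins the auxin indole-3-acetic acid to amino acids and so lowers the pool of free auxin. Its transcription is itself induced quickly by auxin, which makes it a reporter of auxin response and a part of the feedback on it. RR16, also called ARR16, is a type-A response regulator of the cytokinin pathway. In that pathway membrane histidine kinases pass phosphate through phosphotransfer proteins to type-B response regulators, which switch on target genes, among them the type-A regulators that dampen the signal. Auxin and cytokinin together set root and shoot growth in seedlings.

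RNA of Arabidopsis thaliana seedlings was hybridised to Affymetrix ATH1 arrays, with 3 biological replicates in each of 6 groups and 18 arrays in all. The groups were bru1 untreated, bru1 4 h and bru1 52 h after acclimation, and Col untreated, Col 4 h and Col 52 h after acclimation. Acclimation was 1 h at 37 °C, 1.5 h at 23 °C and 45 min at 44 °C, given to seedlings aged 4 d. All groups grew in GM medium with 1% glucose under 16 h of light and 8 h of dark. The untreated seedlings are those of the 4 h time point, so the 52 h seedlings were also older, and age and treatment cannot be told apart at 52 h. BRU1 (also TONSOKU) is a nuclear protein of genome maintenance, and the labels name no bru1 allele. The BRU1 transcript was not analysed here and gives no check of which arrays are mutant.

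Values are log2 expression per probe set made by RMA, in which a difference of 1 is a doubling, and differences come from the linear model of limma with their standard error (SE). Array medians lay between 6.48 and 6.55, and each array correlated with the others of its group at 0.986 to 0.996 on average. Heat-induced transcripts mark the treatment, with HSA32 at 11.42 ± 0.17 in bru1 4 h seedlings against 6.09 ± 0.14 in untreated bru1, and at 11.12 ± 0.24 in Col 4 h seedlings against 6.20 ± 0.11 in untreated Col (SD, n = 3 each). The seedlings carried both shoot and root transcripts. RCA, the activase of Rubisco, had group means of 13.84 to 14.16 and was the only one measured of 16 shoot loci listed. PYK10, a root beta-glucosidase, had group means of 11.92 to 13.44 and was 1 of 3 root genes measured. In such bulk samples fewer cells of a type and less RNA per cell cannot be told apart. The labels name no hybridisation run, and a run that each genotype had to itself cannot be told apart from genotype. The replicates are called biological but no separate cultures are stated, so p-values measure the spread between these samples.

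GH3.3 stood highest in bru1 seedlings 4 h after acclimation and lowest in bru1 seedlings at 52 h, with the Col groups between them. Untreated seedlings had 6.47, 6.13 and 6.04 in bru1 and 6.35, 6.03 and 6.59 in Col. At 4 h the arrays gave 8.65, 8.69 and 8.30 in bru1 and 7.46, 7.26 and 7.02 in Col. At 52 h they gave 5.18, 5.46 and 6.01 in bru1 and 6.38, 6.21 and 6.17 in Col. The untreated groups overlapped, every bru1 array at 4 h lay above every Col array, and every bru1 array at 52 h lay below every Col array. Such a separation at 52 h was found for 13.2% of all probe sets, and its share at 4 h was not counted. In the order of group means, bru1 4 h (8.55 ± 0.21) stood clear of Col 4 h (7.25 ± 0.22), which stood clear of the rest. Untreated Col (6.32 ± 0.28), Col 52 h (6.25 ± 0.11) and untreated bru1 (6.22 ± 0.22) overlapped as neighbours, and bru1 52 h (5.55 ± 0.42) came last without touching untreated bru1 (SD, n = 3 each).

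RR16 had another order, with Col 4 h on top and untreated Col at the bottom. Untreated seedlings had 6.13, 5.63 and 6.01 in bru1 and 5.18, 5.43 and 4.96 in Col. At 4 h the arrays gave 5.49, 6.26 and 5.61 in bru1 and 6.59, 6.32 and 6.21 in Col. At 52 h they gave 5.11, 5.19 and 5.44 in bru1 and 5.84, 5.59 and 5.61 in Col. All untreated bru1 arrays lay above all untreated Col arrays, while at 52 h all bru1 arrays lay below all Col arrays. The latter was found for 13.2% of all probe sets, and the share that separated in untreated seedlings was not counted. At 4 h the genotypes overlapped through bru1 replicate 2, whose 6.26 lies inside the Col range. Only Col 4 h (6.37 ± 0.19) stood clear of the next group, untreated bru1 (5.92 ± 0.26), and Col 52 h (5.68 ± 0.14) stood clear of bru1 52 h (5.25 ± 0.17). The other neighbours in the order overlapped, namely untreated bru1 with bru1 4 h (5.79 ± 0.41), bru1 4 h with Col 52 h, and bru1 52 h with untreated Col (5.19 ± 0.24; SD, n = 3 each).

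**Figure D1:**
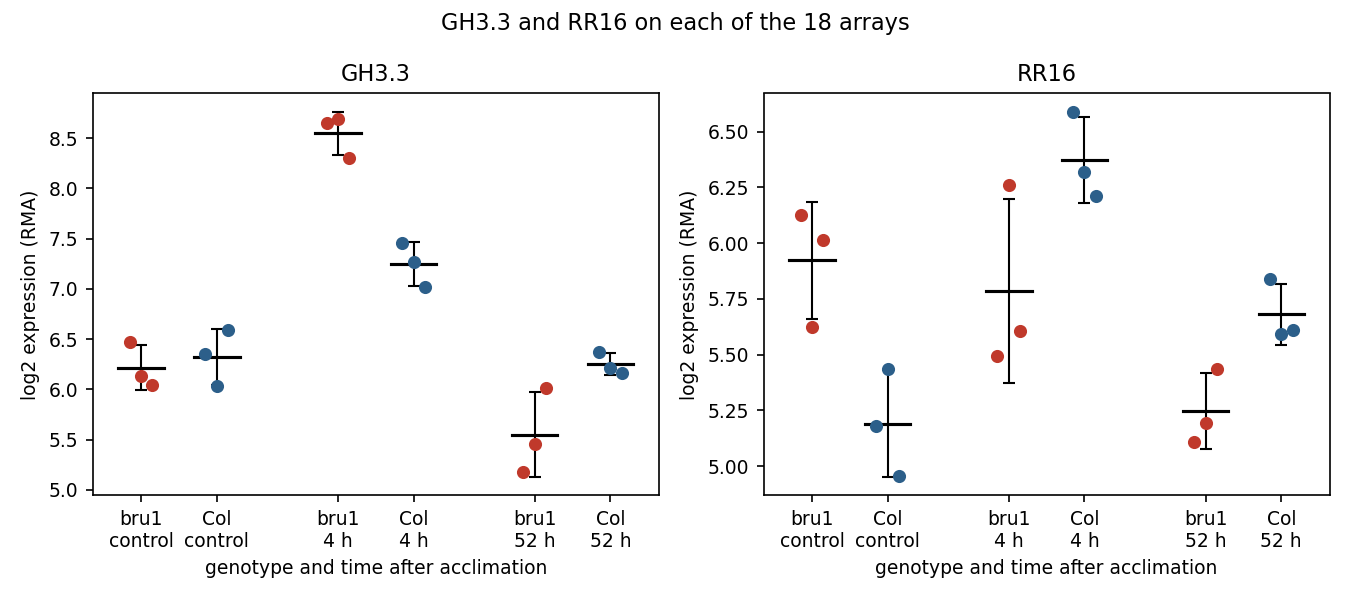
Log2 expression of GH3.3 (left) and RR16 (right) on each of the 18 arrays, by genotype and time after acclimation, with bru1 in red and Col in blue. Points are single arrays, bars the group mean and whiskers 1 SD. GH3.3 peaks at 8.55 in bru1 at 4 h and lies lowest, at 5.55, in bru1 at 52 h, whereas RR16 peaks at 6.37 in Col at 4 h.

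On every array both genes lay above the lower quartile of the values, which is not a detection limit. The lowest value of GH3.3 was 5.18 and that of RR16 4.96, both above 4.39, the highest lower quartile of any array. That of RR16 was in untreated Col, a group that enters its 4 h interaction. The mean of GH3.3 over the 18 arrays, 6.69, exceeded that of 51.8% of the 22746 probe sets tested, and the mean of RR16, 5.70, exceeded that of 40.1%. Both varied more between replicates than most probe sets, with residual SDs of 0.263 (GH3.3) and 0.253 (RR16) against a median of 0.161 over all probe sets. Of all probe sets, 89.1% had a lower residual SD than GH3.3 and 87.3% a lower one than RR16. Over the 18 arrays the 2 genes correlated with each other at r = 0.457, a description over arrays that share their groups.

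At 4 h after acclimation GH3.3 was 2.33 ± 0.19 above untreated seedlings in bru1, a 5.03-fold difference, and 0.92 ± 0.19 above them in Col, a 1.90-fold difference (log2 ± SE, n = 3 a group). A larger 4 h change was found for 0.796% of all probe sets in bru1 and for 3.46% in Col. RR16 behaved the other way round, at -0.14 ± 0.19 relative to untreated seedlings in bru1 and 1.18 ± 0.19 in Col, where 1.98% of all probe sets had a larger change. The bru1 change minus the Col change was 1.41 ± 0.27 for GH3.3 and -1.32 ± 0.26 for RR16, and it is the value that chose both genes. Among all probe sets this interaction passed an adjusted p of 0.05 in 0.343% of cases. Leaving out single arrays moved it between 1.27 and 1.55 for GH3.3 and between -1.56 and -1.17 for RR16.

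The 2 interactions had different make-ups. For GH3.3 the untreated genotypes were close, with bru1 minus Col at -0.11 ± 0.19, and the gap appeared at 4 h, where bru1 was 2.46-fold higher (95% interval 0.90 to 1.70 on the log2 scale). For RR16 the untreated genotypes already stood apart, with bru1 0.73 ± 0.19 above Col, and at 4 h bru1 was 0.59 ± 0.19 below Col. The RR16 value of bru1 at 4 h against untreated bru1 depended on single arrays. It was -0.37 when bru1 4 h replicate 2 was left out, and 0.01 when bru1 4 h replicate 1 was.

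Signs of RNA labelling and quality differed between the same groups. Signal from 25S ribosomal RNA averaged 13.25 in bru1 4 h seedlings against 11.13 in untreated bru1, and 12.82 in Col 4 h seedlings against 11.50 in untreated Col. The 3' minus 5' difference of the actin control averaged 3.51 in bru1 4 h seedlings against 3.03 in untreated bru1, and 3.27 in Col 4 h seedlings against 2.73 in untreated Col. The same difference for GAPDH averaged 0.595 in bru1 4 h seedlings against 0.671 in untreated bru1, and 0.618 in Col 4 h seedlings against 0.406 in untreated Col. At 52 h the GAPDH difference averaged 0.701 in bru1 and 0.477 in Col, and the 25S signal 12.18 in bru1 and 12.27 in Col. The actin difference at 52 h ran from 2.92 to 3.07 in bru1 and from 2.87 to 3.42 in Col, so it overlapped, while that of GAPDH did not. Their part in the values of GH3.3 and RR16 was not tested.

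Markers of tissues moved at 4 h as well. All 3 root genes measured fell against untreated seedlings, with a median of -1.19 in bru1 and -1.18 in Col, where 19.5% of all probe sets fell in bru1 and 18.2% in Col. Of 4 stomatal lineage genes 3 fell and 1, SPCH, rose in bru1, and 2 fell in Col, among them MUTE in both genotypes, whose 4 h means were below 4.39. Between the genotypes at 4 h, FMA, a regulator of guard cell formation, was lower in bru1 (-0.77, limma adjusted p = 1.6e-04), as was PYK10 (-0.44, limma adjusted p = 0.0330), while EXPA18, an expansin of root hairs, was higher (0.98, limma adjusted p = 0.0103). These are 1 of 4 stomatal and 1 of 3 root genes lower and 1 of 3 root genes higher, against 6.96% and 6.45% of all probe sets. The mean log2 level over the root list ran from 7.94 to 8.08 on the bru1 4 h arrays and from 7.55 to 7.96 on the Col 4 h arrays, and that over the stomatal list from 5.62 to 5.77 in bru1 and from 5.96 to 6.17 in Col. None of these genes passed the test of the 4 h interaction in limma (1 of 7 at an unadjusted p under 0.05, against 2966 of all 22746 probe sets). The part of these markers in the 4 h values of GH3.3 and RR16 was not tested.

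At 52 h, GH3.3 was lower in bru1 than in Col, by 0.70 on the log2 scale (-0.70 ± 0.19, 95% interval -1.11 to -0.30), a 1.63-fold difference that passed the test (limma, adjusted p = 0.0236, lower in 3 of 3 bru1 arrays than in any Col array). A call as lower in bru1 at 52 h was made for 5.66% of all probe sets. RR16 was also below Col in 3 of 3 bru1 arrays, with a difference of -0.43 ± 0.19 (95% interval -0.82 to -0.05), which did not pass (limma, unadjusted p = 0.0308, adjusted p = 0.147). Groups that did not overlap, with bru1 below Col, were found for 13.2% of all probe sets. The GH3.3 call was lost without Col 52 h replicate 1 (adjusted p = 0.0881), bru1 52 h replicate 1 (0.136) or bru1 52 h replicate 2 (0.0650). It was also lost when the 6 arrays of 52 h were fitted alone (adjusted p = 0.0991). An exact two-sided permutation test of 3 against 3 arrays gave p = 0.1 for each gene, the smallest it allows.

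Set against untreated seedlings, the 52 h levels of GH3.3 were -0.67 ± 0.19 in bru1 and -0.07 ± 0.19 in Col. Those of RR16 were -0.68 ± 0.19 in bru1 and 0.49 ± 0.19 in Col, so its bru1 change minus its Col change was -1.17 ± 0.26 at 52 h. A lower 52 h change than that of RR16 was found for 2.58% of all probe sets in bru1, and a higher one for 6.14% in Col. These comparisons share the untreated arrays with the 4 h comparisons that chose the genes. Between 4 h and 52 h, a comparison added after the data were seen, GH3.3 dropped by 3.00 in bru1 (SE 0.19), 7.98-fold, and dropped by 1.00 in Col (SE 0.19), 1.99-fold. A larger drop between these times was found for 0.321% of all probe sets in bru1 and for 2.48% in Col. RR16 dropped by 0.54 in bru1 and dropped by 0.69 in Col over that time (SE 0.19 each), a difference between the genotypes of 0.15 ± 0.26.

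The same markers were read beside the 52 h difference. Of the 3 root genes EXPA18 was higher in bru1 at 52 h (1.08 ± 0.24, limma adjusted p = 0.00583, against 5.84% of all probe sets called higher), while EXPA7 (0.38) and PYK10 (-0.41) did not pass. EXPA18 was also higher in untreated bru1 (0.88, limma adjusted p = 0.0226), so its difference was present in all 3 conditions. Of the 4 stomatal lineage genes none passed in limma at 52 h, where 5.66% of all probe sets were called lower. An unadjusted p under 0.05 in limma was found for 3 of the 4 genes, and for 5690 of all 22746 probe sets in either direction. SPCH stood at -0.36, MUTE at -0.49, FMA at -0.25, STOMAGEN at -0.08 and RCA at -0.12. Both 52 h group means of MUTE were below 4.39. The mean log2 level over the root list ran from 8.42 to 8.49 on the bru1 52 h arrays and from 7.72 to 8.58 on the Col 52 h arrays. That over the stomatal list ran from 6.03 to 6.21 on the bru1 52 h arrays and from 6.37 to 6.43 on the Col 52 h arrays. In untreated seedlings it ran from 6.12 to 6.40 in bru1 and from 6.47 to 6.71 in Col, so bru1 lay below Col in all 3 conditions. MUTE was called lower in untreated bru1 (-0.58, limma adjusted p = 0.0350), 1 of the 4 genes against 5.1% of all probe sets. Its untreated bru1 mean was below 4.39. The part of these markers in the 52 h values of GH3.3 and RR16 was not tested.

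Of the 11 loci in the GH3 family list 5 had a probe set with a single gene, and the other 4 did not share the GH3.3 pattern value for value. WES1 (GH3.5), which also conjugates auxin, had 7.68, 7.97 and 7.07 in bru1 4 h seedlings against 6.51, 6.58 and 6.58 in untreated bru1. In Col it had 7.51, 7.74 and 7.23 at 4 h against 6.21, 6.32 and 6.72 untreated. WES1 thus rose in both genotypes by near equal amounts, 1.02 ± 0.21 in bru1 (limma adjusted p = 9.6e-04) and 1.07 ± 0.21 in Col (limma adjusted p = 6.6e-04). Its bru1 change minus its Col change was -0.06 (95% interval -0.69 to 0.58), where that of GH3.3 was 1.41. At 52 h WES1 in bru1 differed from Col by 0.14 (95% interval -0.30 to 0.59).

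GH3.17, another auxin-conjugating enzyme gene, was lower in bru1 than in Col in all 3 conditions. It averaged 7.66 ± 0.13 in untreated bru1 against 8.31 ± 0.19 in untreated Col, a difference of -0.64 ± 0.14 (limma adjusted p = 0.00573). The difference was -0.50 ± 0.14 at 4 h (adjusted p = 0.0238) and -0.44 ± 0.14 at 52 h (adjusted p = 0.0466). Its change at 4 h was 0.18 in bru1 and 0.03 in Col, neither of which passed. The 52 h call was lost with the 6 arrays of 52 h alone (adjusted p = 0.159), with arrays centred on their medians (0.0580) and with the replicate block (0.0566). It was also lost without any single one of 10 arrays (adjusted p of 0.0501 to 0.216), and the 4 h call without any single one of 4 (0.0588 to 0.117), namely Col 4 h replicates 1 and 3 and bru1 4 h replicates 1 and 3.

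GH3.9 averaged 4.79 ± 0.14 in untreated bru1 against 5.49 ± 0.10 in untreated Col (difference -0.70 ± 0.14, limma adjusted p = 0.00418). At 4 h it fell in Col (-0.91 ± 0.14, limma adjusted p = 8.1e-05), while its change in bru1 was -0.34 ± 0.14 and did not pass. Its 4 h means, 4.46 in bru1 and 4.58 in Col, were both close to 4.39. Whether that level limited the fall was not tested. The interaction, 0.57 ± 0.20, had an unadjusted p of 0.0120 and an adjusted p of 0.238 in limma, so the difference between these responses did not pass. GH3.1 had group means of 3.75 to 4.03, all below 4.39, and was not shown to be above background.

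Outside the GH3 family, 14 auxin genes on the lists had a usable probe set, with no receptor, transport, SAUR or ARF gene among them. With the 4 GH3 genes above, 5 of the 18 auxin genes other than GH3.3 rose at 4 h in bru1 (27.8%, against 19.9% of all probe sets) and 1 fell (5.56%, against 19.5%). In Col 4 rose (22.2%, against 18.2% of all probe sets) and 2 fell (11.1%, against 18.2%). Their median 4 h change was 0.13 in bru1 and 0.04 in Col, where that of all probe sets was 0.01 and 0.00. For 5 of the 18, no group mean was above 4.39.

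IAA29, an Aux/IAA repressor gene induced by auxin and by warmth, rose most of these in both genotypes. It had 8.97, 8.71 and 8.54 in bru1 4 h seedlings against 4.29, 4.75 and 4.85 in untreated bru1, a rise of 4.11 ± 0.24 (limma adjusted p = 5.1e-10). In Col it had 8.51, 8.21 and 7.33 at 4 h against 4.16, 4.33 and 4.26 untreated, a rise of 3.77 ± 0.24 (limma adjusted p = 1.9e-09), which is a lower bound because its untreated mean of 4.25 is not above 4.39. At 4 h its bru1 minus Col difference was 0.72 ± 0.24 and did not pass (limma adjusted p = 0.0528), nor did its interaction of 0.34 ± 0.34 (limma adjusted p = 0.709). That interaction is an upper bound, since the Col rise is a lower bound. HAT2, an auxin-induced homeobox gene, and YUC2, of the YUCCA enzymes that make auxin, are named after their values were seen. HAT2 rose by 1.26 in bru1 and 1.13 in Col, and YUC2 by 0.67 in bru1 and 0.81 in Col. IAA34 rose in bru1 (0.54, a lower bound, since both untreated means were below 4.39), with 0.28 in Col, and IAA18 fell in bru1 (-0.38), with 0.04 in Col. YUC6 fell in Col (-0.42), with -0.22 in bru1, while LBD16 and YUC11 did not pass at 4 h in either genotype. The IAA18 call was lost without bru1 control replicate 2 (adjusted p = 0.0556), bru1 control replicate 3 (0.0923) or bru1 4 h replicate 3 (0.117), and that of YUC6 without Col control replicate 3 (0.138), Col 4 h replicate 1 (0.127) or Col 4 h replicate 2 (0.0788), and under renewed quantile normalisation (0.0760).

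In untreated seedlings 0 of the 18 auxin genes were higher in bru1 than in Col (against 5.24% of all probe sets) and 2, GH3.17 and GH3.9, were lower (11.1%, against 5.1%). At 4 h 1, IAA34, was higher in bru1 (5.56%, against 6.45%) and 1, GH3.17, was lower (5.56%, against 6.96%). The IAA34 difference of 0.38 ± 0.12 (limma adjusted p = 0.0415) was lost without any single one of 8 arrays (adjusted p of 0.0512 to 0.161), with arrays centred on their medians (0.0509) and with the replicate block (0.0592). None of the 18 passed the test of the 4 h interaction in limma, and their median was 0.09. An unadjusted p under 0.05 in limma was found for 2 of the 18, and for 2966 of all 22746 probe sets. At 52 h 0 were higher in bru1 than in Col (against 5.84% of all probe sets) and 1, GH3.17, was lower (5.56%, against 5.66% of all probe sets). The differences at 52 h ran from -0.44 (GH3.17) to 0.28, where GH3.3, a chosen gene, had -0.70. The confidence intervals of GH3.3 (-1.11 to -0.30) and GH3.17 (-0.74 to -0.15) overlapped. For 5 of the 18 genes no group mean was above 4.39, which can narrow their range. Whether GH3.3 differed from these genes at 52 h was not tested. Against untreated seedlings, LBD16, a gene of lateral root initiation, fell at 52 h in both genotypes, by 0.52 in bru1 (limma adjusted p = 0.0191) and by 0.51 in Col (limma adjusted p = 0.0116). It was 1 of 18 that fell in bru1 (5.56%, against 4.19% of all probe sets) and 1 of the 3 that fell in Col (16.7%, against 7.84%). The LBD16 call was lost in bru1 without bru1 control replicate 1 (adjusted p = 0.0581), bru1 control replicate 2 (0.105) or bru1 52 h replicate 1 (0.117), and in Col without Col control replicate 2 (0.0713).

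**Figure D2:**
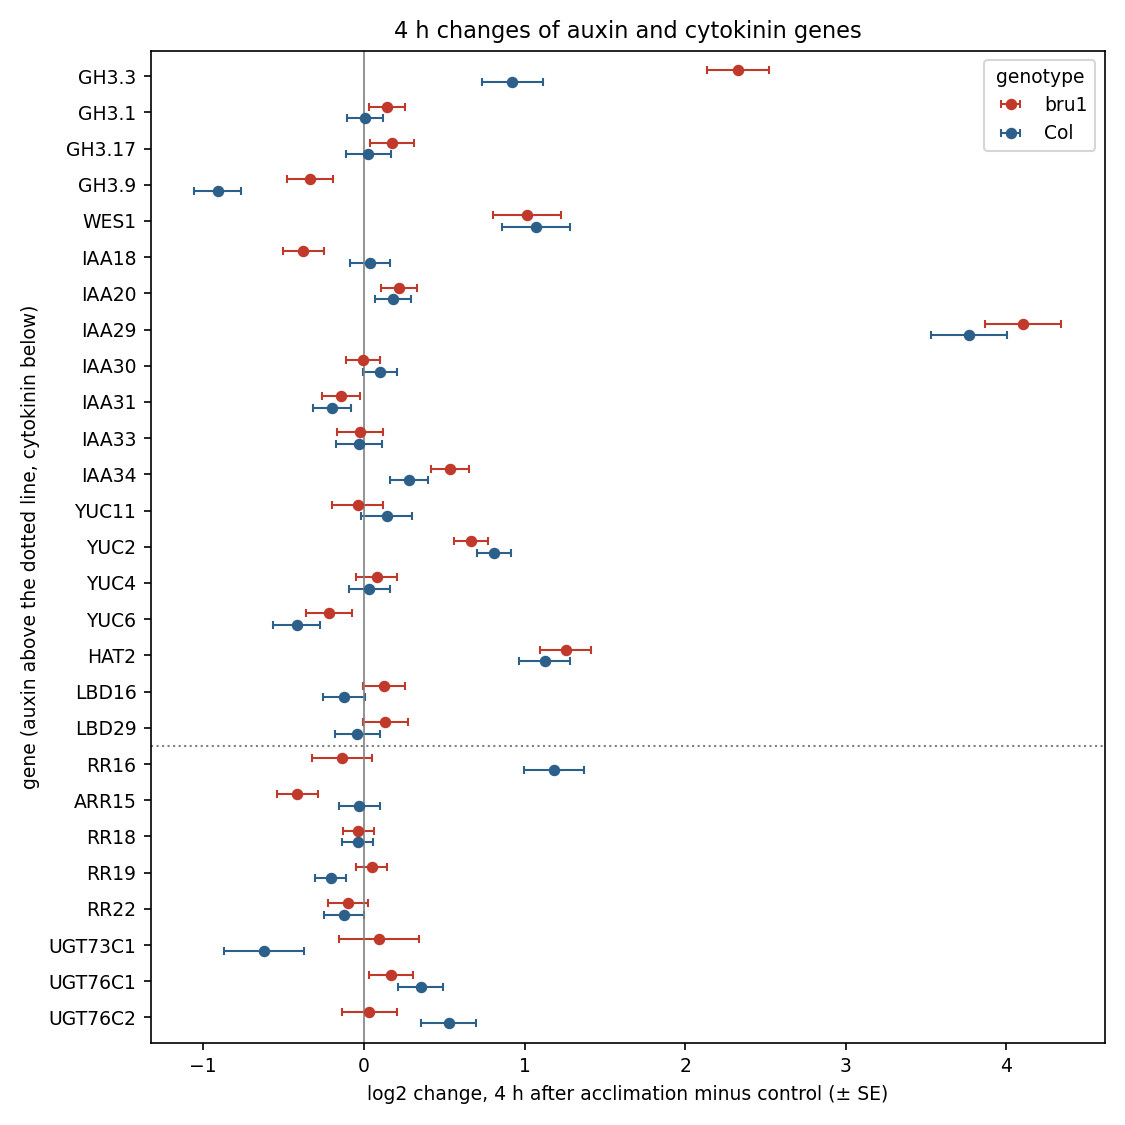
Log2 change at 4 h against untreated seedlings for the 19 auxin genes (above the dotted line) and 8 cytokinin genes (below it) with a usable probe set, in bru1 (red) and Col (blue), with bars of 1 SE. GH3.3 lies at 2.33 in bru1 and 0.92 in Col, RR16 at -0.14 in bru1 and 1.18 in Col, and WES1 at 1.02 in bru1 and 1.07 in Col.

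Of the 10 type-A response regulators RR16 and ARR15 had a usable probe set. ARR15, another type-A regulator gene induced by cytokinin, had 4.46, 4.51 and 4.51 in bru1 4 h seedlings against 4.91, 4.97 and 4.84 in untreated bru1. It fell there, by 0.42 (SE 0.13, limma adjusted p = 0.0147), while in Col it averaged 4.66 ± 0.27 at 4 h against 4.69 ± 0.21 untreated. At 52 h ARR15 was 0.54 below untreated seedlings in bru1 (limma adjusted p = 0.0135) and 0.11 below in Col, where it did not pass. Its bru1 52 h mean of 4.37 was just under 4.39. The interactions of ARR15 had the sign of those of RR16, -0.39 ± 0.18 at 4 h and -0.43 ± 0.18 at 52 h, but did not pass (limma adjusted p = 0.374 and 0.471). The call at 4 h was lost without bru1 control replicate 2 (adjusted p = 0.0515), and that at 52 h without bru1 control replicate 2 (0.0623) or bru1 52 h replicate 2 (0.0740).

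Of 78 loci on the cytokinin lists 8 had a usable probe set, RR16 included, with no receptor, phosphotransfer, synthesis or response factor gene among them. Of the other 7, 0 rose (against 19.9% of all probe sets) and 1 fell (14.3%, against 19.5%) at 4 h in bru1. In Col 1 rose (14.3%, against 18.2%) and 0 fell (against 18.2%). For 3 of the 7, no group mean was above 4.39. The gene that rose in Col was UGT76C2, an enzyme gene that glucosylates and so inactivates cytokinin, at 8.34, 8.18 and 8.42 in 4 h seedlings against 7.73, 7.92 and 7.71 in untreated ones. Its change was 0.53 ± 0.17 in Col (limma adjusted p = 0.0216) and 0.03 ± 0.17 in bru1, but the interaction of -0.50 ± 0.24 did not pass (limma adjusted p = 0.395). The UGT76C2 call was lost without any single one of 4 arrays (adjusted p of 0.0566 to 0.0747), Col control replicates 1 and 3 and Col 4 h replicates 1 and 3. UGT76C1, which does the same reaction, had 0.17 in bru1 and 0.35 in Col, neither past the test. The 3 type-B and type-C regulators RR18, RR19 and RR22 had all their group means below 4.39.

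At 52 h, UGT73C1, a glucosyltransferase gene whose enzyme can act on cytokinins, was the gene of these 7 that was lower in bru1 than in Col (14.3%, against 5.66% of all probe sets). It had 6.50, 6.28 and 6.35 in bru1 52 h seedlings against 6.85, 7.14 and 7.68 in Col 52 h seedlings, a difference of -0.85 ± 0.25 (limma adjusted p = 0.0365). Relative to untreated seedlings it rose in both genotypes, by 0.87 in bru1 (limma adjusted p = 0.0439) and 1.28 in Col (limma adjusted p = 0.00201). That made 1 of 7 that rose in each genotype (14.3%, against 3.05% of all probe sets in bru1 and 6.93% in Col). The 52 h difference was lost without bru1 52 h replicate 1 (adjusted p = 0.0712), 2 (0.0866) or 3 (0.0934) or Col 52 h replicate 3 (0.167), and with the 6 arrays of 52 h alone (0.0579). The bru1 rise was lost without any single one of 10 arrays (0.0538 to 0.183). In untreated seedlings 1 of the 7, the dim RR19, was lower in bru1 (14.3%, against 5.1% of all probe sets), a call lost without any single one of 13 arrays (adjusted p of 0.0544 to 0.170). At 4 h 0 of the 7 differed between the genotypes in limma, where 6.45% of all probe sets were higher and 6.96% lower in bru1. At an unadjusted p under 0.05 in limma it was 0 of the 7 and 5986 of all 22746 probe sets. None of the 7 passed the test of the interaction in limma at 4 h or at 52 h, which 0.343% and 0.119% of all probe sets passed. An unadjusted p under 0.05 in limma was found for 1 of the 7 each time, and for 2966 of all 22746 probe sets at 4 h and 2079 at 52 h.

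**Figure D3:**
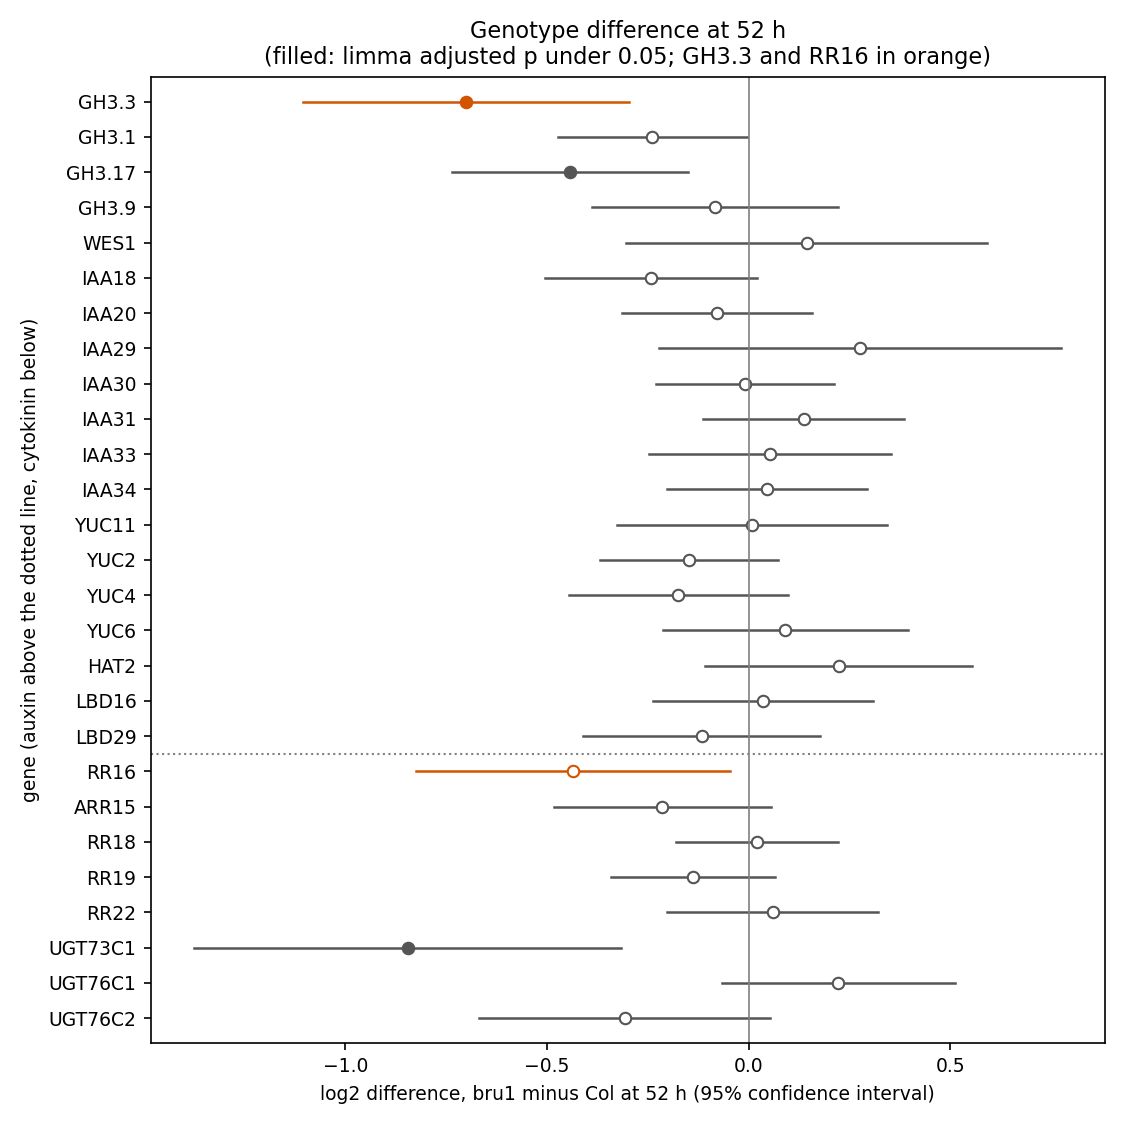
Log2 difference of bru1 minus Col at 52 h after acclimation with its 95% confidence interval, for the 19 auxin genes (above the dotted line) and 8 cytokinin genes (below it), with GH3.3 and RR16 in orange. Filled points passed limma's adjusted p of 0.05, namely GH3.3 (-0.70), GH3.17 (-0.44) and UGT73C1 (-0.85), and RR16 (-0.43) did not.

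Genes with the most similar pattern were sought among 2490 genes whose 6 group means spanned at least 1 log2 unit, by Pearson correlation over the 18 arrays, which share their groups. For GH3.3 these were AT3G11850 (r = 0.935), AT3G59850 (0.925), AT1G80290 (0.910), AT3G13690 (0.909) and AT3G50350 (0.907). Their 4 h changes ran from 0.74 (AT3G13690) to 1.74 (AT3G50350) in bru1, and those 2 genes changed by 0.56 and 1.17 in Col. AT3G59850 had 52 h means of 3.88 in bru1 and 4.09 in Col, both below 4.39, so no 52 h difference is given for it. All 5 were nearer between the genotypes at 4 h than GH3.3, with interactions of 0.12 to 0.58. GH3.3 was chosen on this value, which was higher in 0.435% of all probe sets, so smaller values in other genes carry no weight. At 52 h bru1 differed from Col by -0.50 in AT3G50350 and by -0.18 to 0.11 in AT3G11850, AT1G80290 and AT3G13690.

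For RR16 the closest were AT1G12010 (r = 0.817), AT4G13030 (0.777), AT4G12760 (0.759), AT3G50900 (0.737) and AT1G27150 (0.735). Over single arrays these r values were lower than those of the GH3.3 set. Over the 6 group means they ran from 0.761 (AT3G50900) to 0.930 (AT1G12010), against 0.923 (AT3G13690) to 0.978 (AT3G11850) in the GH3.3 set. AT1G12010 was the one nearest in shape, at 0.08 in bru1 and 0.99 in Col for the 4 h change and at -0.85 for bru1 minus Col at 52 h. In the other 4 the 4 h change was 0.26 to 0.80 in bru1 and 1.04 to 1.29 in Col. At 52 h bru1 differed from Col by -0.21 to -0.04 in these 4, where RR16 had -0.43.

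**Figure D4:**
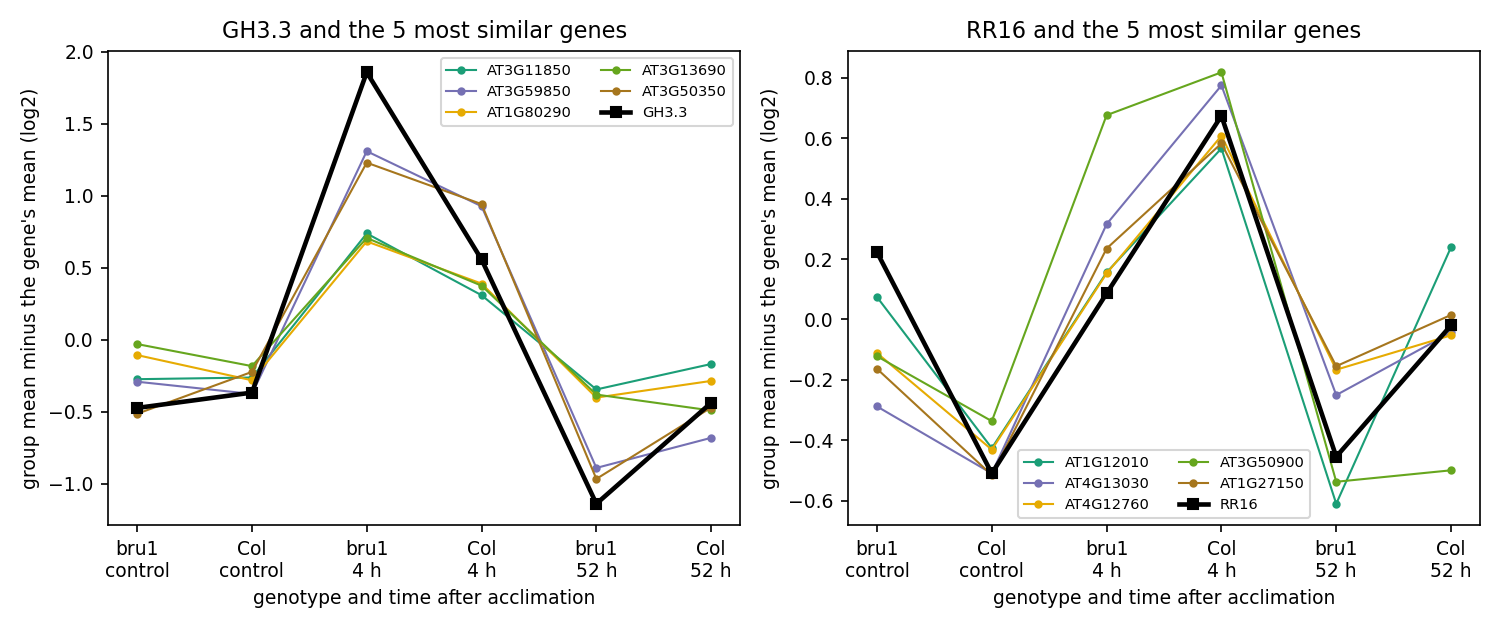
Group means of log2 expression, each gene's mean over the 6 groups subtracted, for GH3.3 (left) and RR16 (right) in black with the 5 most similar genes of each in colour. The GH3.3 curve has the highest peak of its set at bru1 4 h, and AT1G12010 is the lowest of those drawn with RR16 at bru1 52 h, with a 4 h change of 0.08 in bru1 and 0.99 in Col.

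The annotated neighbours of both genes on the chromosome were read as well, a choice made after the data were seen. AT2G23160, the adjacent gene of GH3.3 with a usable probe set, changed at 4 h by 0.08 in bru1 and 0.01 in Col. AT2G40660, adjacent to RR16, changed by 0.02 in bru1 and -0.09 in Col. The interactions of these neighbours at 4 h were 0.07 (AT2G23160) and 0.11 (AT2G40660). At 52 h bru1 minus Col was 0.05 for AT2G23160. For the 3 neighbours of RR16 with a usable probe set it was -0.36 for AT2G40650 (limma adjusted p = 0.0569), -0.31 for AT2G40660 (limma adjusted p = 0.0691) and -0.59 for AT2G40700 (limma adjusted p = 0.00328). Of these AT2G40700 passed, where 5.66% of all probe sets were called lower. The median difference over all probe sets was -0.02. The 4 h changes were 0.72 in bru1 and 0.66 in Col for AT2G40650, and 0.50 in bru1 and 0.25 in Col for AT2G40700.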

How the data were processed

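The deposited values are log2 expression per probe set from Affymetrix ATH1 arrays, made by the authors with RMA per the submitters' processing notes. RMA corrects background, applies quantile normalisation and summarises probes. No source used here gives its version or settings. The values (2.63 to 14.6) were used as deposited. No columns were identical.

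A single limma model (version 3.58.1, R 4.3.3) fitted 6 group means to the 18 arrays and left 12 residual degrees of freedom. The 64 AFFX control probe sets stayed out of it. Benjamini-Hochberg adjustment ran over the other 22746, with a threshold of 0.05. The number of arrays limits precision.

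Genes were named from GEO's platform annotation (13513 probe sets with 1 gene, 503 with several, 8730 unlisted and unnamed here) and RefSeq's TAIR10.1 gene table, used for names and neighbours only. For genes with several probe sets the one with the highest mean was read. The members and the 18 lists were chosen with earlier results of these data known. Named are all measured GH3 genes and type-A regulators, the 6 other auxin and 6 other cytokinin genes with the largest 4 h interaction and those past the threshold in an interaction or in bru1 against Col at 52 h, and the 5 genes most like each member. Alternatives were a replicate block, 2 other scalings, a filter on dim probe sets, another eBayes prior, the 52 h arrays alone and leaving out each array. Replicate numbers showed no pairing in the values: same-numbered arrays of different groups deviated together at a median r of -0.02. The labels do not say whether replicates were handled as sets. No sequences were used here.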

Additional observations from a re-analysis of the deposited data

Results flagged for a closer look

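The response of GH3.3 at 4 h differed between the genotypes, with a bru1 change minus Col change of 1.41 on the log2 scale, and that of RR16 differed by -1.32. Both genes were chosen on these values, so neither counts as support for itself.

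For RR16 the 52 h levels moved in opposite ways against untreated seedlings, by -0.68 in bru1 and 0.49 in Col, with a bru1 change minus Col change of -1.17. That difference was not tested, because the untreated arrays also took part in the choice of the gene. No group was searched for outlying arrays, since each held 3.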

How the results depend on the processing

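The 52 h difference of GH3.3 kept its direction in 18 of 18 fits without 1 array, from -0.93 to -0.52, and its call in 15 of them. With only the 6 arrays of 52 h it was -0.70 and not past the threshold (adjusted p = 0.0991). That of RR16 kept its direction and stayed short of the threshold in all 18, from -0.53 to -0.36, and in 6 of 6 other settings. The 4 h interactions ran from 1.27 to 1.55 (GH3.3) and from -1.56 to -1.17 (RR16) without 1 array. The count of probe sets called in the 4 h interaction, 78, was 28 with the replicate block and 7 to 405 without 1 array (7 without Col 4 h replicate 1, 405 without bru1 4 h replicate 2). The replicate block changed no call of GH3.3 or RR16, although it ended 4 of 24 calls of the other named genes, where renewed quantile normalisation ended 2, median centring 3 and the 52 h arrays alone 2 of 2. For bru1 against Col at 52 h the count of 2615 was 1001 with the 52 h arrays alone and 1549 to 3428 without 1 array. Without 1 array the other counts ran from 7060 to 8730 (Col 4 h), 2381 to 3816 (Col 52 h), 7577 to 9391 (bru1 4 h), 843 to 2017 (bru1 52 h), 1486 to 2902 (untreated bru1 against Col), 1715 to 3448 (bru1 against Col at 4 h) and 8 to 142 (interaction at 52 h). Of the 24 calls of other named genes, 9 survived every single array left out and 0 changed sign. The cause of these changes was not tested, beyond the fewer arrays in each fit. Replicate numbers showed no pairing in the values (3 of 18 arrays were closest to their own number), and the labels do not say whether replicates were handled as sets.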
